A study of Mus musculus with 15 samples.

Results

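Across 15 bulk RNA libraries of mouse brain cortex, 75 genes had a higher mean level than control both while microglia were depleted and after they had returned. The genes were chosen by 3 thresholds on CPM, the read count scaled to the library total: a control mean of at least 2, and depletion and repopulation means that were each at least 1.3 times the control mean. Symbols of predicted genes, which begin with Gm and a digit or end in Rik, were left out, and 8 such symbols would also have met the thresholds. The 75 genes were 0.587% of the 12766 named genes with a control mean of at least 2 CPM, in a table of 53278 symbols. Because the thresholds used these libraries, the height of the genes over control is given below as a description and was not tested.

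The mice were male C57BL/6J animals of 10 to 20 weeks, 5 per group and 1 library per mouse. Controls ate control food. The depletion group ate food with PLX3397 for 9 days, and the repopulation group ate PLX3397 food for 9 days and control food for the following 9 days. PLX3397 is an oral drug that blocks CSF1R, the receptor tyrosine kinase on which microglia depend for survival, and it also inhibits related kinases such as KIT. Both treated groups had therefore taken the drug, and no group of the series received it while keeping its microglia. The protocols name no batch, no cell sort and no pooling of animals.

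Microglia, the macrophages that live in brain tissue, are replaced within days from surviving cells once a CSF1R blocker is withdrawn. Their number is low in the depletion group and restored in the repopulation group, so a gene high in both groups is high at either number of microglia. Bulk cortex also carries RNA of neurons, astrocytes, oligodendrocytes and vessels, and of whatever neighbouring tissue is dissected with it, such as striatum below the cortex or choroid plexus, the secretory epithelium of the ventricles. In such RNA, more cells of a type and more RNA per cell cannot be told apart.

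The libraries matched their labels on microglia and cortex. The summed level of 15 homeostatic microglia genes was 361.2 to 398.8 CPM in controls, 37.93 to 46.65 CPM in depletion and 400.5 to 445.4 CPM in repopulation, while 10 upper-layer cortical neuron genes summed to between 953 and 1095 CPM in all 15 libraries. Total counts ran from 24347802 to 48617851 in controls, from 23413551 to 29482140 in depletion and from 26837517 to 29582274 in repopulation. Depletion mouse 5 had the shallowest library. Some libraries stood apart in RNA of neighbouring tissue: the choroid plexus transcript Ttr lay above its highest control in depletion mice 1, 2 and 3 and repopulation mouse 4, and the summed level of 15 striatal genes lay above its highest control in depletion mouse 5 and repopulation mice 2 and 5.

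Most of the 75 genes had low counts, and most ratios were modest. The control mean, not scaled to gene length, was 2 to 5 CPM for 33 genes, 5 to 20 CPM for 23, 20 to 100 CPM for 15 and at least 100 CPM for 4, namely Pde10a, Enpp2, Usp9x and Gabrb2. The median ratio to the control mean was 1.37 in depletion and 1.47 in repopulation. For 71 genes both ratios lay under 2, and the exceptions were Ttr, Kl, Clic6 and C4b. In 51 genes the smaller of the 2 ratios lay under 1.4, close to the threshold, and in 8 genes it was at least 1.5. The repopulation mean lay above the depletion mean in 59 genes and below it in 16.

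**Figure D1:**
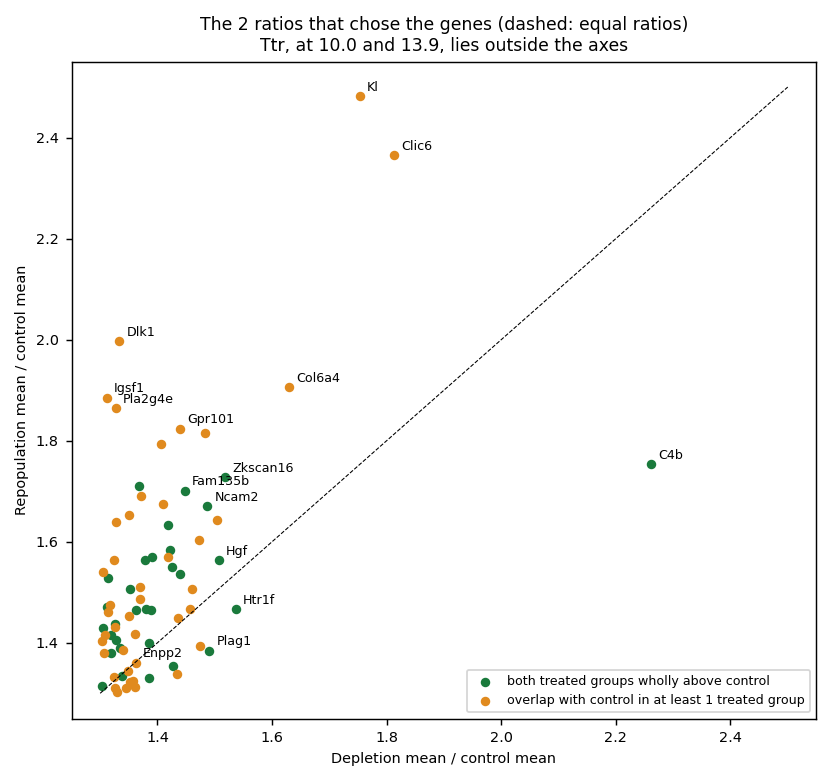
Each point is 1 of the 75 genes, placed by its depletion mean over control mean (horizontal axis) and its repopulation mean over control mean (vertical axis), with n = 5 mice per group. Green points are the 31 genes whose 10 treated libraries all lay above all 5 controls, orange points overlap control in at least 1 treated group, and Ttr, at 10.0 and 13.9, lies outside the axes; 59 points lie above the dashed line of equal ratios.

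Consistency between mice divided the genes. In 31 of the 75 genes every depletion library and every repopulation library lay above the highest control, against 486 of all 12766 genes (3.81%). The 5 depletion libraries were wholly above control in 33 genes, where 5.12% of all genes were, and the 5 repopulation libraries in 50, where 13.9% of all genes were. Repopulation alone was wholly above control in 19 genes, depletion alone in 2, and neither group in 23. All of these counts use the same values as the thresholds, so that the shares of all genes serve as background and nothing further is read from them.

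Many of the 75 genes were carried by few mice, among them genes wholly above control such as Tenm1 and Gabrb2. A gene is said here to rest on a mouse where leaving out that 1 treated library takes a group mean under 1.3 times the control mean. By this measure 53 of the 75 genes rested on at least 1 treated mouse, 48 of them on a depletion mouse and 16 on a repopulation mouse. Depletion mouse 5 carried 43 genes, and 22 of these rested on no other mouse. Without it 34 genes met the thresholds, of which 16 were wholly above control. Depletion mouse 2 carried 15 genes, repopulation mouse 4 carried 7, repopulation mouse 5 carried 6, and each other treated mouse carried between 2 and 5. Another 3 genes, Creb5, Gpr21 and Pcdhga2, were lost only when a control was left out.

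Depletion mouse 5 was the highest depletion library for 49 of the 75 genes, and repopulation mouse 5 was the highest repopulation library for 42. Depletion mouse 3 was the lowest of its group for 29 genes and repopulation mouse 1 for 37. At least 1.3 times the control mean was reached by 67 genes in depletion mouse 5 and by 26 to 45 in the other depletion mice. The repopulation libraries ran from 47 to 64 genes and single controls from 1 to 7. The median ratio of the 75 genes to the control mean was 1.66 in depletion mouse 5 and 1.23 to 1.35 in the other depletion mice, and it was 1.34 to 1.65 in the repopulation mice. The median of the 75 genes lay above the control mean in every treated mouse, which the choice of genes favours. Depletion mouse 5 stood well above its own group.

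**Figure D2:**
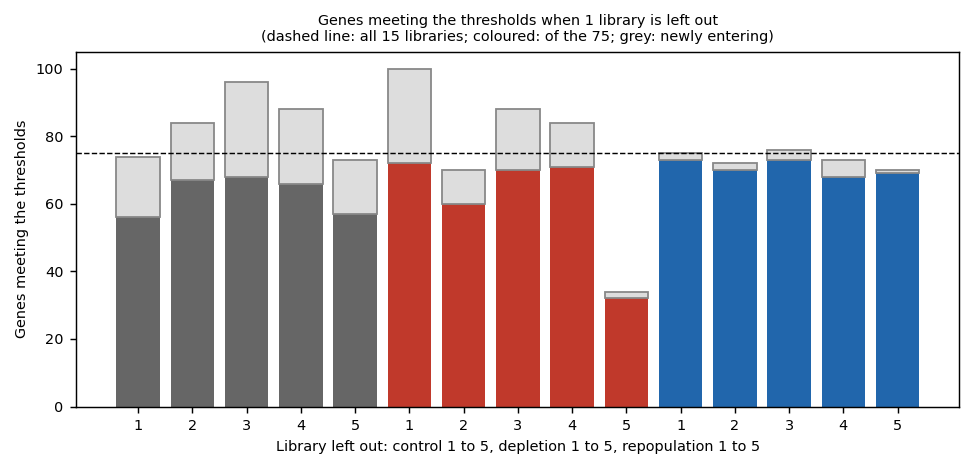
Bars give the number of genes that met the thresholds when 1 library was left out, with the library on the horizontal axis and the number of genes on the vertical axis; the coloured part counts genes of the 75, the grey part counts genes that newly entered, and the dashed line marks 75. Without depletion mouse 5 only 34 genes met the thresholds, 32 of them from the 75, and every other bar reached at least 70.

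Some genes met the thresholds whichever mouse was left out. These 19 genes were C4b, Col6a4, Zkscan16, Hgf, Ncam2, Htr1f, Gprin3, Blm, Fam135b, Fam35a, Fam205c, Lnpep, Map3k21, Slc8a1, Kcna3, Plag1, Zc3h6, Scn7a and Hunk. In 12 of them all treated libraries also lay above all controls: C4b, Zkscan16, Hgf, Ncam2, Htr1f, Fam135b, Fam35a, Lnpep, Map3k21, Slc8a1, Plag1 and Zc3h6. The other 7 overlapped control in at least 1 treated mouse.

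**Figure D3:**
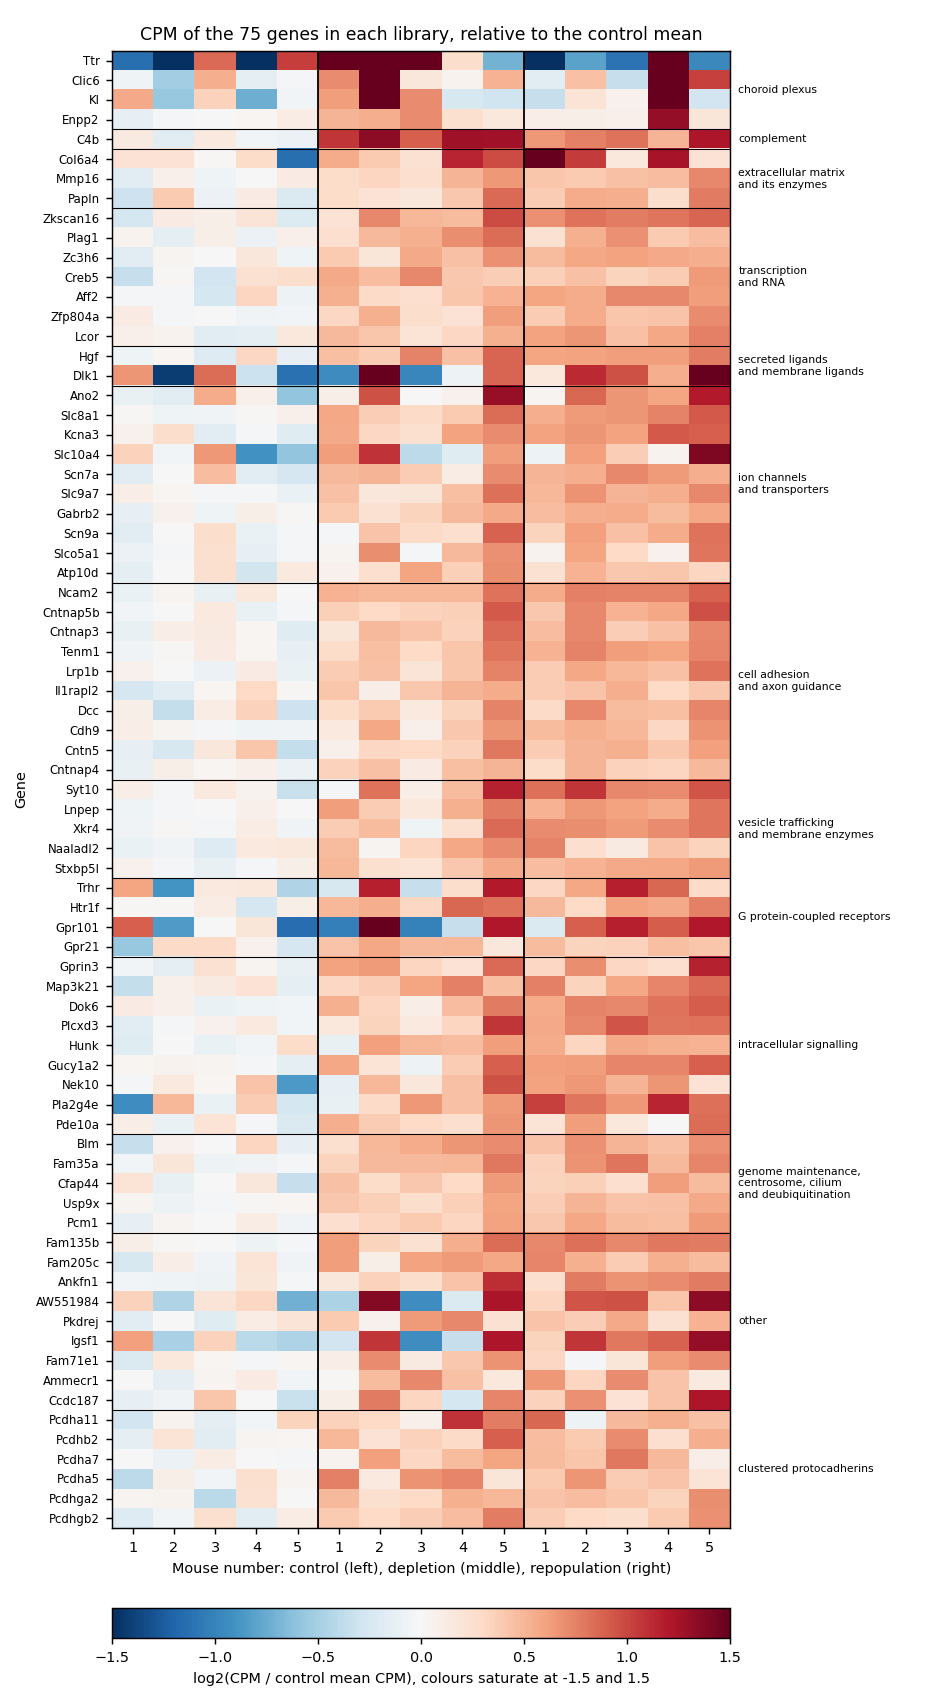
Rows are the 75 genes, ordered by role, and columns are the 15 libraries in the order control, depletion, repopulation; colour gives log2 of a library's CPM over the control mean, saturating at -1.5 and 1.5. The columns of depletion mouse 5 and repopulation mouse 5 are the reddest of their groups, and Ttr, Clic6 and Kl are deepest red in depletion mouse 2 and repopulation mouse 4.

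Complement was represented by C4b alone, the precursor of complement component C4, which reactive astrocytes are known to make. C4b (chr17:34728380-34743882, minus strand, GRCm38) stood at 22.6, 18.4, 22.9, 20.1 and 19.5 CPM in controls 1 to 5. In depletion it stood at 43.7, 52.4, 38.5, 49.996 and 49.6 CPM, and in repopulation at 32.5, 34.9, 36.4, 29.5 and 48.2 CPM. Every treated mouse lay above every control, and repopulation mouse 5 lay with the depletion mice rather than with the rest of its group. Group means were 20.7 ± 1.99, 46.8 ± 5.66 and 36.3 ± 7.13 CPM (SD, n = 5 each), ratios of 2.26 and 1.75, which made C4b the gene with the largest depletion ratio among those whose treated groups did not overlap control. Its near-identical neighbour C4a, whose reads the counting could have split with C4b, fell instead in both groups, with log2 changes of -0.55 (SE 0.14, adjusted p = 0.00932, edgeR) and -0.52 (SE 0.14, adjusted p = 0.00779, edgeR), so the levels of both genes carry that uncertainty.

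Other complement genes did not share this pattern. Of 18 complement genes tested, 1 was higher in depletion than in control, which was C4b itself, and 8 fell, among them the microglial genes C1qa, C1qb and C1qc, where 8.19% of all genes were called higher and 8.35% lower. After repopulation C4b was again higher than control and C4a and Cfp fell, where 13.9% of all genes were called higher and 15.2% lower. Among 18 genes known from reactive astrocytes, Gfap and C4b were higher in depletion and Hspb1 fell, while in repopulation C4b and Cxcl10 were higher and Lcn2, Hspb1 and Emp1 fell. Gfap, the astrocyte filament protein, rose by 0.71 on the log2 scale in depletion (SE 0.10, adjusted p = 0.000226, edgeR), and its repopulation difference from control was 0.03 (SE 0.10, adjusted p = 0.874, edgeR). C4b was the only gene of either list called higher than control in both groups, and the thresholds chose it for being high in both. The genes of an interferon response, 26 of 28 of which were higher than control in repopulation and none of which was in depletion (0 also by DESeq2 and at an unadjusted p under 0.05), held no member of the 75.

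Among genes of transcription and RNA biology, 6 of 7 were wholly above control in both groups and 3 of 7 rested on a treated mouse. Zkscan16 (chr4:58943628-58958355, plus strand) encodes a zinc finger protein with KRAB and SCAN domains. It stood at 25.2, 32.9, 32.2, 34.7 and 26.3 CPM in controls, 35.2, 49.8, 42.9, 42.2 and 59.6 CPM in depletion and 48.7, 53.4, 51.4, 52.7 and 55.3 CPM in repopulation. Depletion mouse 1 only just cleared the highest control, whereas the repopulation mice lay close together. Its group means were 30.3 ± 4.25, 45.9 ± 9.21 and 52.3 ± 2.44 CPM (SD, n = 5 each) and its ratios 1.52 and 1.73. The other genes wholly above control were Plag1, a zinc finger transcription factor, with ratios of 1.49 and 1.38; Zc3h6, a CCCH zinc finger gene, with 1.38 and 1.47; Creb5, of the CREB family, with 1.43 and 1.35; Zfp804a with 1.32 and 1.42; and Lcor, a corepressor of nuclear receptors, with 1.31 and 1.53. Aff2, a nuclear protein whose loss causes intellectual disability in humans, had ratios of 1.32 and 1.56, with 3 of 5 depletion mice above the highest control. Zfp804a, Lcor and Aff2 each rested on depletion mouse 5 and on 1 further depletion mouse.

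Among ligands, Hgf was consistent and Dlk1 was not. Hgf (chr5:16553495-16620152, plus strand) encodes hepatocyte growth factor, the secreted ligand of the receptor Met. It stood at 4.5, 4.8, 4.14, 5.83 and 4.32 CPM in controls, 6.47, 6.15, 7.92, 6.38 and 8.63 CPM in depletion and 7.13, 7.18, 7.27, 7.28 and 8.03 CPM in repopulation. Control 4 came near the lowest depletion mouse without reaching it, and the repopulation mice lay within a narrow band below depletion mouse 5. Group means of Hgf were 4.72 ± 0.669, 7.11 ± 1.1 and 7.38 ± 0.371 CPM (SD, n = 5 each), with ratios of 1.51 and 1.56.

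Cell adhesion and axon guidance supplied 10 genes, 6 of them wholly above control in both groups, but 9 of the 10 rested on a treated mouse. The exception was Ncam2 (chr16:81200697-81626828, plus strand), a homophilic adhesion molecule of the immunoglobulin superfamily. It stood at 43.2, 47.6, 42.9, 51.8 and 45.9 CPM in controls, 66.3, 65.3, 65.6, 65.6 and 81.4 CPM in depletion and 67.9, 78.4, 77.4, 77.3 and 85.7 CPM in repopulation. Depletion mice 1 to 4 were almost level, depletion mouse 5 stood above them, and all lay clear of the controls. Group means were 46.3 ± 3.64, 68.8 ± 7.06 and 77.3 ± 6.32 CPM (SD, n = 5 each), with ratios of 1.49 and 1.67.

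Contactin-associated proteins are neurexin-related adhesion molecules of neurons and myelinated axons. Cntnap5b stood at 11.9, 12.2, 13.6, 11.4 and 12 CPM in controls, 15.6, 15, 15.5, 15.6 and 23.1 CPM in depletion and 16.1, 20.1, 17.5, 18.3 and 23.8 CPM in repopulation. Cntnap3 stood at 10.7, 12.4, 12.7, 11.8 and 10.2 CPM, 13.1, 16.2, 15.5, 14.6 and 20.8 CPM and 15.9, 19.1, 14.9, 15.7 and 19 CPM in the same order. Neither gene overlapped control in any treated mouse, yet both rested on depletion mouse 5, without which their depletion means lay under 1.3 times the control mean. Their ratios were 1.39 and 1.57 for Cntnap5b and 1.39 and 1.47 for Cntnap3. All 7 Cntnap genes were expressed at 2 CPM or more, and their median ratios were 1.2 in depletion and 1.32 in repopulation, against 0.986 and 0.997 over all genes. The family was chosen after its members were seen.

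The remaining adhesion and guidance genes were weaker. Tenm1, a teneurin that bridges neurons, had ratios of 1.38 and 1.56, and Lrp1b, of the LDL receptor family, had 1.36 and 1.46. Both were wholly above control and both rested on depletion mouse 5 alone. Il1rapl2, of the interleukin receptor accessory family, had ratios of 1.32 and 1.33; Dcc, the receptor for netrin, had 1.31 and 1.46; and Cdh9, a cadherin, had 1.31 and 1.42. Cntnap4 and Cntn5 lay at the threshold itself and are described with it below.

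Clustered protocadherins are neuronal surface proteins encoded in 3 neighbouring arrays on chromosome 18, and 6 of them were among the 75: Pcdha11, Pcdhb2, Pcdha7, Pcdha5, Pcdhga2 and Pcdhgb2. Their control means were 2.27 to 9.52 CPM and their ratios 1.33 to 1.47 in depletion and 1.33 to 1.4 in repopulation. Pcdhb2, Pcdhga2 and Pcdhgb2 were wholly above control. Over the whole family, 52 genes were expressed at 2 CPM or more, and 42 of them had both ratios above 1, as did 33.1% of all genes. This family, too, was looked at after its members were seen, and the 6 are counted among the 52. The family's median ratios were 1.14 in depletion and 1.18 in repopulation, and its lowest were 0.847 and 0.86. Protocadherins of the alpha and gamma arrays share their last exons, so that their counts can be divided between members. Of the 6, 5 overlap another coding gene, and Pcdha11, with no annotation entry, could not be checked.

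Ion channels and transporters made up 10 genes, of which 3 were wholly above control: Slc8a1, Slc9a7 and Gabrb2. Slc8a1 (chr17:81373105-81738377, minus strand), the sodium/calcium exchanger of the plasma membrane, stood at 28.3, 26.7, 26.8, 28.1 and 29.5 CPM in controls, 41.6, 36, 33.9, 36.5 and 49.8 CPM in depletion and 40.5, 43.3, 44.3, 46.8 and 52.7 CPM in repopulation. The lowest treated mouse, depletion mouse 3, lay above all controls. Its ratios were 1.42 and 1.63.

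Gabrb2 (chr11:42419757-42629028, plus strand) encodes a beta subunit of the GABA-A receptor that neurons use for fast inhibition. It stood at 126, 143, 132, 147 and 139.5 CPM in controls, 180.3, 161, 174, 193 and 204 CPM in depletion and 190, 201, 201, 190.3 and 205 CPM in repopulation, ratios of 1.33 and 1.44. The groups did not overlap, but without depletion mouse 5 the depletion ratio fell below the threshold. Over the 12 GABA-A subunit genes expressed at 2 CPM or more the median ratios were 1.09 and 1.08. Slc9a7, a sodium/proton exchanger of the Golgi network, had ratios of 1.35 and 1.51 and likewise rested on depletion mouse 5.

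Kcna3, a voltage-gated potassium channel, and Scn7a, a sodium channel that senses extracellular sodium, rested on no treated mouse although 1 or more depletion mice overlapped control. Their ratios were 1.41 and 1.68 for Kcna3 and 1.37 and 1.51 for Scn7a. Ano2, a calcium-activated chloride channel, had ratios of 1.5 and 1.64, and Scn9a, a voltage-gated sodium channel, had 1.32 and 1.47. Both rested on depletion mouse 5. Slc10a4, a vesicular protein of cholinergic and monoaminergic terminals, had ratios of 1.37 and 1.49 with 1 mouse of each treated group above the highest control. Slco5a1, of the organic anion transporter family, had ratios of 1.33 and 1.31 and rested on 4 treated mice.

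Receptors coupled to G proteins were split between a consistent and an uneven pattern. Htr1f (chr16:64924729-65105854, minus strand), a serotonin receptor that inhibits adenylyl cyclase, stood at 2.72, 2.72, 2.9, 2.26 and 2.86 CPM in controls, 3.79, 3.92, 3.34, 4.88 and 4.74 CPM in depletion and 3.79, 3.3, 4.1, 4.0 and 4.56 CPM in repopulation. No treated mouse reached down to the controls, and depletion mice 4 and 5 were the highest of all. Group means were 2.69 ± 0.255, 4.14 ± 0.656 and 3.95 ± 0.46 CPM (SD, n = 5 each), with ratios of 1.54 and 1.47. Gpr21, an orphan receptor, had ratios of 1.36 and 1.32, and its repopulation mice were wholly above control. Trhr, the receptor for thyrotropin-releasing hormone, and the orphan receptor Gpr101 followed depletion mice 2 and 5, as described below.

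Promoters of 46 of the 75 genes were matched by symbol in RefSeq (GRCm38.p6), as windows from 250 bases before to 50 bases after the start. The 58 windows held a median of 12.5 CpG pairs and 58.5% GC, against 20 and 61% over 12908 windows of 9961 expressed genes. The Sp1 GC box, searched as GGGCGG on both strands, lay in 62.1% of them and in 62.2% of all windows. The cyclic AMP response element TGACGTCA lay in 3.45% and 2.98%, TATAAA in 6.9% and 6.95%, and TAATCC, a site bound by the choroid plexus factor Otx2, in 12.1% (7 windows) and 5.45%. A match is a run of letters and not evidence of binding.

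Windows are shown for Ncam2 and Htr1f, which have AT-rich transcripts and were kept in every leave-out, and for the choroid plexus gene Kl. They lie at chr16:81200447-81200746 (plus strand), chr16:65105735-65106034 (minus strand) and chr5:150952357-150952656 (plus strand), and capitals mark GC boxes on either strand.
Ncam2: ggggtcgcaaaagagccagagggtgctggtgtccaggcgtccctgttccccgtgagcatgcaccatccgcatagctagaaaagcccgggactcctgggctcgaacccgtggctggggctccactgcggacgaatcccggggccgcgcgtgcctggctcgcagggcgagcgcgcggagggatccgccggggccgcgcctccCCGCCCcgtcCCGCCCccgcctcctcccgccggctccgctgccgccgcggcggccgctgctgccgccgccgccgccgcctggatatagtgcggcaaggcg
Htr1f: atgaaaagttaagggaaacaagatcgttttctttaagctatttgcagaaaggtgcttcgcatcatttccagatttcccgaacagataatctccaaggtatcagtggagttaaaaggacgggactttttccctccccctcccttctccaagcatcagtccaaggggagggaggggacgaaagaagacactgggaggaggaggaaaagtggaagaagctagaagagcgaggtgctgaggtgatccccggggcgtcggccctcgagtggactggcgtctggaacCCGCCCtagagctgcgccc
Kl: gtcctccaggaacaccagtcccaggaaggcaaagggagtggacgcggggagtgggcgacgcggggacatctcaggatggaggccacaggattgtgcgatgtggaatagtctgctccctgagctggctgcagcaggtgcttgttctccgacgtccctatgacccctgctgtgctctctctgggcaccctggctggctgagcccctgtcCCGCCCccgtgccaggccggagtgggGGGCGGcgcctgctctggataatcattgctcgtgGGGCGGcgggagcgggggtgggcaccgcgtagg
The Ncam2 window holds 41 CpG pairs at 75.7% GC, although its transcript is at 38.24% GC, the Htr1f window holds 13 CpG pairs at 53% GC, and the Kl window 19 at 67.3% GC.

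Membrane and vesicle genes numbered 5. Lnpep, the insulin-regulated aminopeptidase, stood at 23.1, 23.8, 24, 25.5 and 24.1 CPM in controls, 37.2, 31.4, 26.8, 35 and 41.4 CPM in depletion and 34.6, 38, 36.7, 35.6 and 42.1 CPM in repopulation. Depletion mouse 3 was the lowest treated library and still lay above all controls, and the ratios were 1.42 and 1.55. Stxbp5l, a tomosyn that restrains vesicle fusion, was also wholly above control, with ratios of 1.31 and 1.47, but it rested on depletion mice 1 and 5. Xkr4, of the phospholipid scramblase family, had ratios of 1.33 and 1.64, and Naaladl2, a peptidase-like membrane protein, had 1.36 and 1.31.

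Syt10, a synaptotagmin, showed the divide between the treated groups. It stood at 4.77, 4.38, 4.93, 4.6 and 3.53 CPM in controls, 4.35, 7.81, 4.75, 6.17 and 9.87 CPM in depletion and 7.88, 9.35, 7.3, 7.25 and 8.52 CPM in repopulation. Depletion mice 1 and 3 lay among the controls, depletion mice 2, 4 and 5 lay above them, and all 5 repopulation mice lay clear of them. Its ratios were 1.48 and 1.81.

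Intracellular signalling genes numbered 9, and 2 of them, Map3k21 and Plcxd3, were wholly above control. Map3k21, a mixed-lineage kinase, stood at 3.11, 4.18, 4.35, 4.6 and 3.61 CPM in controls, 4.94, 5.13, 5.99, 6.72 and 5.42 CPM in depletion and 6.73, 5.0, 5.92, 6.61 and 7.16 CPM in repopulation. Control 4 and depletion mouse 1 lay closest together, and the ratios were 1.42 and 1.58. Plcxd3, a phospholipase C-like gene, stood at 5.47, 6.03, 6.38, 6.78 and 5.92 CPM, 6.85, 7.71, 6.79, 7.67 and 12.8 CPM and 9.09, 10.1, 11.7, 10.6 and 10.8 CPM in the same order. Its depletion mice 1 and 3 were scarcely above control 4, so that its depletion ratio rested on mouse 5, and its ratios were 1.37 and 1.71.

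Gprin3, a protein that binds G protein subunits, had ratios of 1.46 and 1.51, and Hunk, a kinase related to AMPK, had 1.36 and 1.42. Gucy1a2, a subunit of soluble guanylate cyclase, had ratios of 1.35 and 1.65 and rested on depletion mouse 5, and so did Nek10, a NIMA-related kinase, with 1.35 and 1.45. Pla2g4e, a cytosolic phospholipase, stood at 5.0, 13.4, 8.9, 12.4 and 7.92 CPM in controls, 8.8, 11.7, 15, 13 and 14.8 CPM in depletion and 19.4, 16.6, 14.9, 21 and 16.8 CPM in repopulation. Its controls were spread widely, the depletion mice overlapped them and the repopulation mice lay above them, with ratios of 1.33 and 1.86.

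Among genes of genome maintenance, the centrosome, the cilium and deubiquitination, 4 of 5 were wholly above control and 3 of 5 rested on a treated mouse. Fam35a, a component of the shieldin complex of DNA repair, stood at 4.36, 5.09, 4.24, 4.31 and 4.39 CPM in controls, 5.64, 6.29, 6.27, 6.31 and 7.73 CPM in depletion and 5.68, 7.14, 7.82, 6.28 and 7.47 CPM in repopulation. The lowest treated mice lay just above control 2, and the ratios were 1.44 and 1.54. Blm, a DNA helicase, had ratios of 1.46 and 1.47, with 4 of 5 depletion mice above control. Usp9x, an X-linked deubiquitinase, had ratios of 1.32 and 1.38 at a control mean of 164 CPM, and Pcm1, a scaffold of centriolar satellites, had 1.31 and 1.43. Both rested on depletion mouse 5, and Cfap44, a gene of cilia and flagella with ratios of 1.34 and 1.33, rested on depletion mouse 5 and repopulation mouse 4.

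Among genes with little known function, Fam135b stood at 22.8, 21.7, 21.5, 20.5 and 21 CPM in controls, 33.3, 27.2, 25.3, 31.4 and 38.6 CPM in depletion and 35.5, 38, 35.3, 37.1 and 36.9 CPM in repopulation. The controls and the repopulation mice were each tight, and the depletion mice spread from just above the controls to the level of the repopulation mice. Its ratios were 1.45 and 1.7. Fam205c had ratios of 1.44 and 1.45, Ankfn1 1.42 and 1.57, Fam71e1 1.35 and 1.31, Ammecr1 1.31 and 1.38 and Ccdc187 1.3 and 1.54. Pkdrej, named for its similarity to polycystin and a sea urchin sperm receptor, had ratios of 1.35 and 1.34.

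Matrix genes were uneven. Col6a4, a collagen VI chain, had ratios of 1.63 and 1.91 and was kept in every leave-out, but 1 depletion and 2 repopulation mice overlapped the controls. Mmp16, a membrane-bound matrix metalloproteinase, was wholly above control with ratios of 1.33 and 1.41 and rested on depletion mouse 5. Papln, an extracellular matrix glycoprotein, had ratios of 1.33 and 1.43.

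**Figure D4:**
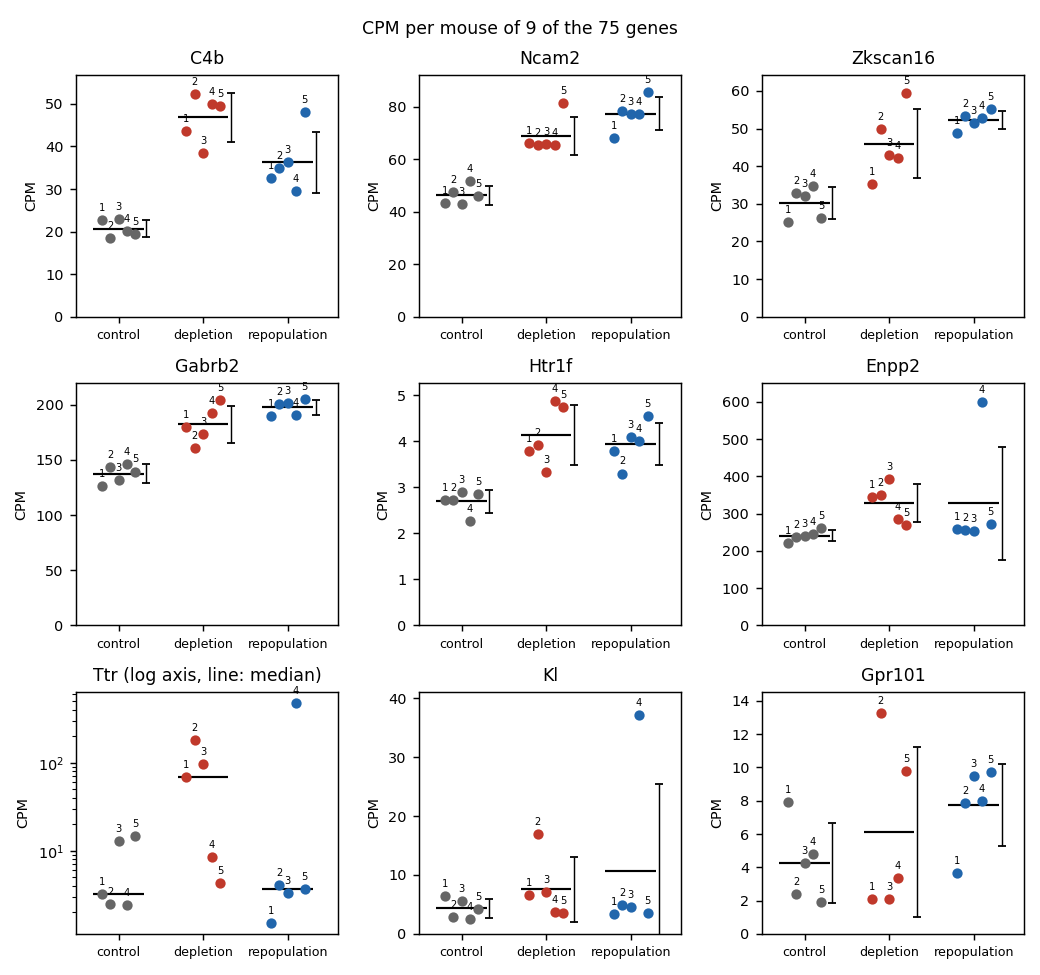
Panels give CPM per mouse of 9 of the 75 genes in the 3 groups, with the mouse number beside each point, the group mean as a line and the SD (n = 5) as a bar; Ttr is drawn on a log axis with the group median as its line. C4b, Ncam2, Zkscan16, Gabrb2 and Htr1f show no overlap of treated mice with controls, Enpp2, Ttr and Kl are led by repopulation mouse 4 at 599, 482 and 37.1 CPM, and Gpr101 is led by depletion mouse 2 at 13.3 CPM.

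Of the 4 choroid plexus genes, Ttr, Kl and Clic6 had the 3 largest repopulation ratios of the 75, and these came from few mice. Ttr encodes transthyretin, a carrier of thyroid hormone and retinol. Ttr (chr18:20665280-20674321, plus strand) stood at 3.25, 2.5, 12.8, 2.42 and 14.6 CPM in controls, 68.2, 179.9, 96.7, 8.51 and 4.36 CPM in depletion and 1.52, 4.08, 3.32, 482 and 3.65 CPM in repopulation. Depletion mice 1, 2 and 3 and repopulation mouse 4 were high, and the other treated mice lay within or below the range of the controls. Group means were 7.12 ± 6.06, 71.5 ± 72.2 and 98.9 ± 214 CPM (SD, n = 5 each), so that both SDs exceeded their means, and the median of the repopulation mice was 3.65 CPM against 3.25 CPM in controls.

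Kl encodes klotho, a co-receptor for a hormone of phosphate balance. Kl (chr5:150952607-150993817, plus strand) stood at 6.38, 2.92, 5.48, 2.59 and 4.2 CPM in controls, 6.64, 16.9, 7.06, 3.66 and 3.5 CPM in depletion and 3.38, 4.97, 4.51, 37.1 and 3.54 CPM in repopulation. Clic6, a chloride intracellular channel protein, stood at 3.02, 2.2, 4.62, 2.88 and 3.1 CPM, 5.18, 12.1, 3.55, 3.29 and 4.53 CPM and 2.84, 4.29, 2.5, 21.4 and 6.42 CPM in the same order. Depletion mouse 2 and repopulation mouse 4 led both genes, as they led Ttr. Without repopulation mouse 4, none of Ttr, Kl, Clic6 and Enpp2 met the thresholds.

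Enpp2 encodes autotaxin, which makes lysophosphatidic acid and is known from both choroid plexus and oligodendrocytes. Enpp2 (chr15:54838901-54952892, minus strand) stood at 221, 237, 240.4, 245 and 261 CPM in controls, 344, 351, 393, 285 and 269 CPM in depletion and 258, 256, 254, 599 and 273 CPM in repopulation. Unlike the other choroid plexus genes, it was above all controls in all 5 depletion mice, although it also rested on depletion mouse 3. In repopulation, mouse 4 stood far above the rest, and 3 of the 5 mice lay within the range of controls.

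The summed level of 18 choroid plexus genes was 258.6 to 306.1 CPM in controls, 305.1 to 610.1 CPM in depletion and 287.5 to 1249 CPM in repopulation, and none of them was at 0 in a whole group. Of 16 genes of the list tested, 0 were called higher or lower by edgeR in any of the 3 comparisons of groups. At an unadjusted p under 0.05, 5 were higher in repopulation than in control, 1 was higher in repopulation than in depletion and 0 differed between depletion and control, while DESeq2 called 4 higher in repopulation than in control and 0 in the other comparisons. By edgeR with all 15 libraries, 8.19% of all genes were higher in depletion than in control and 13.9% in repopulation than in control. Between repopulation and depletion, 7.61% were higher and 8.98% lower. Without repopulation mouse 4, edgeR called 6 genes of the list higher in depletion than in control and 6 lower in repopulation than in depletion. The share of all genes is not given for that fit or for the other measures. The part of choroid plexus RNA in the levels of these 4 genes was not tested.

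A further pattern was shared by Dlk1, Igsf1, Gpr101, AW551984 and Trhr, in which depletion mice 2 and 5 were the highest of their group while depletion mice 1 and 3 lay below the control mean. Dlk1, an imprinted membrane protein related to Notch ligands, stood at 6.87, 1.62, 7.8, 3.49 and 2.0 CPM in controls, 2.26, 12.4, 2.21, 4.14 and 7.99 CPM in depletion and 4.87, 9.49, 8.42, 6.36 and 14.3 CPM in repopulation. Igsf1, an immunoglobulin superfamily protein known from pituitary and hypothalamus, stood at 3.83, 1.78, 3.17, 1.89 and 1.8 CPM, 2.05, 5.27, 1.31, 1.97 and 5.77 CPM and 3.14, 5.24, 4.32, 4.61 and 6.21 CPM in the same order. In both genes the highest controls reached past the lower depletion mice, and all 5 genes rested on depletion mice 2 and 5.

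Gpr101, an orphan receptor known from hypothalamus and striatum, stood at 7.92, 2.37, 4.24, 4.81 and 1.92 CPM in controls, 2.09, 13.3, 2.1, 3.36 and 9.78 CPM in depletion and 3.65, 7.89, 9.5, 7.96 and 9.75 CPM in repopulation. AW551984 stood at 5.18, 2.98, 4.66, 5.05 and 2.47 CPM, 2.92, 10.6, 2.14, 3.49 and 9.48 CPM and 5.07, 7.82, 7.86, 5.43 and 10.3 CPM in the same order. Their ratios were 1.44 and 1.82 for Gpr101, 1.41 and 1.79 for AW551984, 1.33 and 2.0 for Dlk1, 1.31 and 1.89 for Igsf1 and 1.47 and 1.6 for Trhr. Over all 75 genes, depletion mice 2 and 5 were the highest pair of their group in 26.

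Markers of thalamus and hypothalamus, and cholinergic and olfactory markers, also varied between libraries. The summed level of 17 thalamus and hypothalamus genes was 303.4 to 439.3 CPM in controls, 294.2 to 469.1 CPM in depletion and 373.2 to 473.4 CPM in repopulation. That of 9 cholinergic and olfactory genes was 19.1 to 28.36 CPM, 18.93 to 36.6 CPM and 22.57 to 48.44 CPM in the same order, and none of either list was at 0 in a whole group. Of 13 thalamus and hypothalamus genes tested, none was called in depletion against control (1 was lower by DESeq2 and at an unadjusted p under 0.05), Rora rose in repopulation against control (1 gene, where 13.9% of all genes were higher, and 3 by DESeq2 or at an unadjusted p under 0.05), and Prkcd and Lef1 rose in repopulation against depletion (2 genes by each measure, where 7.61% of all genes were higher). Of 7 cholinergic and olfactory genes tested, Doc2g fell in depletion against control (2 lower by DESeq2 or unadjusted), where 8.35% of all genes were lower by edgeR. None was called in repopulation against control (0 also by DESeq2 and unadjusted). Th rose in repopulation against depletion (1 by DESeq2, 2 unadjusted), where 7.61% of all genes were higher by edgeR. The part of such RNA in the 5 genes was not tested.

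Pde10a, a phosphodiesterase that is most abundant in striatal neurons, was the only gene of the 75 in the list of 15 striatal genes. Pde10a (chr17:8525372-8986648, plus strand) stood at 335, 291, 358, 304 and 267 CPM in controls, 455, 405, 384, 369 and 491 CPM in depletion and 359.9, 482, 348, 311 and 557 CPM in repopulation. All depletion mice lay above the controls, whereas in repopulation mice 3 and 4 lay among them and mice 2 and 5 were high. The 15 striatal genes summed to 1349 to 1948 CPM in controls, 1556 to 2007 CPM in depletion and 1372 to 2330 CPM in repopulation, with depletion mouse 5 and repopulation mice 2 and 5 above all controls. None of the 15 was called by edgeR in any comparison, where 8.19% of all genes were higher than control in depletion and 13.9% in repopulation. By DESeq2, 1 was higher than control in each treated group, and 2 were higher in each at an unadjusted p under 0.05. Without those 3 libraries 31 genes met the thresholds, 28 of them from the 75. Gprin3, which met them whichever single mouse was left out, did not meet them here. The part of striatal RNA was not tested.

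The difference between repopulation and depletion was not itself a threshold, but the thresholds used the values of both groups. Genes high in only 1 of these groups were left out in advance, which limits the differences that could be seen. The number of the 75 called in this comparison depended on single mice. Of 18369 genes tested with edgeR, 1398 were higher in repopulation (7.61%) and 1649 were lower (8.98%). Of the 75 genes, 1 rose from depletion to repopulation, 1 fell and 73 were not called. At an unadjusted p under 0.05 the numbers were 10 higher and 1 lower. Without depletion mouse 5 edgeR called 14 of the 75 higher, and without any 1 of depletion mice 2 to 4 or repopulation mice 2 to 5 it called 0. Without the low-count filter 9 were called higher and 0 lower, and over the leave-outs the number called lower was 0 to 2. The log2 differences of the 75 ran from -0.39 to 0.58 with a median of 0.10, against 0.001 over all genes, and they were above 0 in 73.3% of the 75 and in 50.2% of all genes. Depletion and repopulation were each measured against the same 5 controls, and the choice of genes favours high values in both treated groups. All genes are also an unlike background, since the decile of longest gene span held 33 of the 75. Over all genes of that decile the median log2 ratio to control was 0.073 in depletion and 0.141 in repopulation. The part of gene length in the difference was not tested.

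The gene that rose was Dok6 (chr18:89292424-89769528, minus strand), an adaptor that docks to receptor tyrosine kinases such as Ret. It stood at 11, 10.6, 9.38, 9.61 and 9.77 CPM in controls, 14.5, 12.6, 10.8, 13.8 and 17.2 CPM in depletion and 14.8, 16.9, 16.6, 17.7 and 18.9 CPM in repopulation. Depletion mouse 5 lay within the repopulation group, depletion mouse 3 lay within the range of the controls, and 2 repopulation mice lay above all depletion mice. The log2 difference from depletion was 0.29 (SE 0.09, adjusted p = 0.0344, edgeR). Over 22 other settings Dok6 was called in 12, with adjusted p from 0.00188 to 0.673 by edgeR or DESeq2.

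The gene that fell was C4b, by 0.39 on the log2 scale (SE 0.12, adjusted p = 0.0431, edgeR), and 4 of 5 repopulation mice lay below the lowest depletion mouse. It was called in 8 of 22 other settings, with adjusted p from 0.000518 to 0.138 by edgeR or DESeq2. The 5 largest differences among the genes that were not called had wide errors. They were 0.58 for Dlk1 (SE 0.54), 0.53 for Igsf1 (SE 0.39), 0.48 for Pla2g4e (SE 0.23), 0.47 for Kl (SE 0.72) and 0.44 for Ttr (SE 1.38), with adjusted p from 0.202 for Pla2g4e to 0.879 for Ttr (edgeR).

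By the same fit, 56 of the 75 genes were called higher than control in depletion, where 8.19% of all genes were, 60 in repopulation, where 13.9% were, 55 in both and 14 in neither. The thresholds used these comparisons, so that the calls are only a description. They do not measure how even the chosen genes were between mice. None of the 75 was called lower.

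The 75 genes were long and poor in G and C. The median gene span was 114 kb for the 75, 177 kb for the 31 wholly above control and 27.1 kb for all genes with a control mean of at least 2 CPM. The decile of genes with the longest span held 33 of the 75 (44%) and 18 of the 31. The median GC content of the longest transcript was 45.23%, 43.36% and 49.86%, and its median length 4.77, 4.89 and 3.62 kb, for the 75, the 31 and all genes. Of the 75, 72 were annotated as protein-coding, Atp10d as a polymorphic pseudogene, and Fam35a and Pcdha11 had no entry under those symbols.

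The whole transcriptome shifted along the same properties. In the decile of longest transcripts the median log2 ratio to control of all genes was 0.068 in depletion and 0.161 in repopulation, and in the shortest it was -0.110 and -0.216. In the decile lowest in GC it was 0.064 and 0.069, and in the highest -0.111 and -0.070. In the longest decile the value was 0.13 in depletion mouse 5, 0.03 to 0.07 in the other depletion mice and 0.15 to 0.17 in the repopulation mice. With the trends over GC content and length taken out of each library, 55 genes met the thresholds, 42 of them from the 75, and 19 were wholly above control. Of the 19 genes kept in every leave-out, 16 were among these, and Slc8a1, Plag1 and Scn7a were not. Fam35a, counted in the 16, and Pcdha11, counted in the 42, had no annotation entry. No trend was therefore taken out of these genes, and their being kept says nothing about the trends.

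**Figure D5:**
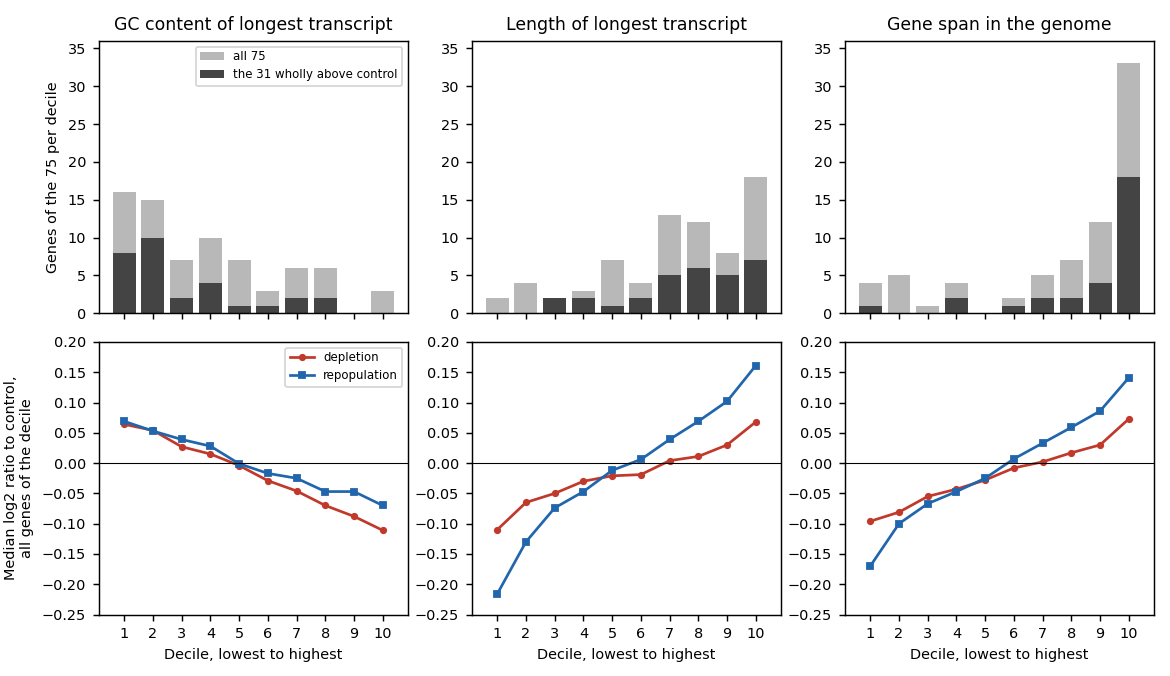
Genes with a control mean of at least 2 CPM were ranked into deciles by GC content of the longest transcript, its length, or gene span (horizontal axes). Upper panels count the 75 genes (grey) and the 31 wholly above control (dark) per decile, with 33 and 18 in the longest span; lower panels give the median log2 ratio to control over all genes of the decile, from -0.216 to 0.161.

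By chromosome, 8 of the 75 genes lay on X (10.7%, against 3.43% of all genes), 8 on chromosome 18, where the protocadherins are (10.7%, against 2.86%), and none of the 611 genes on chromosome 10 was among them. These counts cover the 73 genes with an annotation entry, so Pcdha11 is not in the count of chromosome 18. Protein-coding genes that overlap another coding gene numbered 11, among them Slc8a1, Tenm1, Pde10a and Zc3h6. Whether counting used the strand is not given in the sources used here, so reads of such pairs may be shared.

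At the threshold itself, neighbouring genes were alike. Just inside it, Cntnap4 stood at 19.8, 22.7, 21.8, 22.6 and 20.2 CPM in controls, 27.3, 29, 23.4, 29.4 and 30.6 CPM in depletion and 26, 30.6, 27.3, 26.8 and 29.99 CPM in repopulation. All treated mice lay above all controls, although the smaller ratio was only 1.303. Cntn5, a contactin, stood at 6.46, 5.96, 7.9, 9.36 and 5.49 CPM, 7.41, 8.7, 8.68, 8.92 and 12.1 CPM and 9.13, 10.00, 10.2, 9.28 and 10.8 CPM in the same order, and Atp10d, a phospholipid-transporting ATPase, at 4.09, 4.51, 5.35, 3.74 and 5.02 CPM, 4.73, 5.41, 6.86, 5.83 and 7.35 CPM and 5.31, 6.53, 6.0, 6.07 and 5.68 CPM. Both overlapped control in both groups. Just outside it were Hfm1, with a smaller ratio of 1.296, Gfpt2, also with 1.296, and Hs6st3, with 1.293.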

How the data were processed

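Cortex RNA of 15 mice, 5 per group and 1 library per mouse, was measured by bulk RNA sequencing. The deposited table holds raw counts per gene symbol, as whole numbers, and all of its 15 sample columns were used. The submitters' processing notes name the genome build mm10 and the tools STAR, FastQC, MultiQC, DESeq and DESeq2. Their roles and versions, like the counting tool, annotation and strand setting, were not given in the sources used here. No 2 libraries were identical, and libraries of 1 group differed beyond sampling noise, with 2.53 to 9.95 chi-square units per degree of freedom.

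CPM was each count over its column total. The 75 genes were chosen by 3 thresholds: a control mean of at least 2 CPM, both treated means at least 1.3 times it, and no predicted-gene symbol. Each of the 15 libraries was left out in turn. The genes and the marker lists were chosen with earlier results of these data known. All 75 passed the low-count filter of edgeR 4.0.16 (filterByExpr), and 18369 genes were tested by its quasi-likelihood F test with TMM scaling in R 4.3.3, all 15 libraries in 1 fit and no covariate. P-values were adjusted over all tested genes by Benjamini-Hochberg, with a threshold of 0.05. A sentence that gives SE gives the standard error of that fit. On simulated counts with known changes the script recovered 87% of genes at a log2 change of 0.5 and 99% at 1, with 4.12% false calls. The simulation drew each gene independently, without length or GC trends or neighbouring tissue in single mice. These rates may therefore not hold for the real libraries. The median log2 ratio of all genes to control was -0.021 in depletion and -0.005 in repopulation by CPM.

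Values in every mouse are given for genes wholly above control with the largest smaller ratio, genes resting on a mouse with the largest ratio, genes called between repopulation and depletion, genes at the threshold and members of the marker lists. The result of 1 gene of the complement list is not reported here. Gene positions, transcript length and GC content came from GENCODE M21 (GRCm38, the same assembly as mm10), where 93.1% of symbols had 1 unambiguous entry. The alternatives were DESeq2 1.42.0, other scalings, thresholds and filters, a fit of 2 groups, a replicate block and leave-outs. Added after seeing the data were leave-outs of libraries high in Ttr or in striatal genes, and removal of per-library trends (medians of 20 bins, pseudocount 0.25) over GC content and length. At 1 CPM a gene rests on 23.4 to 48.6 reads per library, which limits the precision of the weakest genes.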

Additional observations from a re-analysis of the deposited data

Results flagged for a closer look

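In each gene and group the most extreme mouse was compared with its group by Dixon's ratio, the gap to the nearest other mouse over the whole range of 5 mice, with a critical value of 0.71. Of 225 checks, 25 exceeded it (11.1%). The nominal rate of about 1 in 20 is no yardstick here. The genes were chosen for high treated means, which favours high single mice, and the same libraries recur across genes. Repopulation mouse 4 stood high for Ttr (0.995, 482 CPM against 4.08 in the next mouse), Kl (0.953), Enpp2 (0.945) and Clic6 (0.792), and depletion mouse 2 for Clic6 (0.786) and Kl (0.735). Depletion mouse 5 stood high for Ncam2 (0.94), Cntnap5b (0.925), Plcxd3 (0.847), Ankfn1 (0.783) and Papln (0.713). Repopulation mouse 5 stood high for Hgf (0.832), Mmp16 (0.802) and Pcdhgb2 (0.724).

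Treated mice that stood low were depletion mouse 2 for Fam205c (0.888), depletion mouse 1 for Hunk (0.735), repopulation mouse 2 for Hunk (0.779) and repopulation mouse 1 for Ankfn1 (0.762). Among controls, mouse 5 was low for Col6a4 (0.735) and mouse 4 for Htr1f (0.714). High controls were mouse 2 for Fam35a (0.822), mouse 4 for Ankfn1 (0.809), mouse 3 for Slco5a1 (0.75) and Scn7a (0.71), and mouse 1 for Zfp804a (0.739).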

How the results depend on the processing

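The number of genes meeting the thresholds followed the thresholds: 258 at a ratio of 1.2, 8 at 1.5 and 42 with a control floor of 5 CPM, against 75. TMM scaling gave 84 genes, DESeq2 size factors 85 and medians in place of means 64, of which 40 were among the 75. Leaving out 1 mouse gave 34 to 100 genes, and 16 to 46 genes wholly above control against 31, both lowest without depletion mouse 5. Without the 4 libraries high in Ttr 125 genes met the thresholds, and without the 3 high in striatal genes 31 did. With the length and GC trends taken out, 19 genes were wholly above control, and 965 genes were lower in depletion than in control against 1533.

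Between repopulation and depletion, members called higher numbered 9 without the low-count filter, 2 in a fit of both groups alone, 0 with the trends out, 0 without the Ttr-high libraries and 0 to 14 over the leave-outs, most without depletion mouse 5. Members called lower numbered 0 without the filter, in the fit of both groups and without the Ttr-high libraries, and 0 to 2 over the leave-outs, most without repopulation mouse 4. Without the Ttr-high libraries, which left 2 depletion and 4 repopulation mice, 589 of all genes were higher and 260 lower. That fit also had fewer libraries, and the cause of these changes was not tested. The differences of Dok6 and C4b kept their sign in all 22 alternatives, whereas the balance of all genes moved from more lower to more higher without the Ttr-high libraries, and without repopulation mouse 4 the choroid plexus genes called lower numbered 6 against 0. Same-numbered mice did not pair: over 15 pairs the correlation of their deviations ran from -0.251 to 0.19, and 1 of 15 was best with its own number. With the replicate block, 4 members were higher and 0 lower. Depth limits mainly the 33 genes with control means of 2 to 5 CPM.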
